A study of Homo sapiens with 15 samples.

Results

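Amino acid transporter genes were followed through senescence and TXNRD1 inhibition in IMR90, a human fibroblast line established from fetal lung. The set holds every gene of the deposited count table whose symbol is SLC1A, SLC3A, SLC6A, SLC7A, SLC36A, SLC38A or SLC43A followed by digits alone. That rule, which uses names and no measured value, found 58 of the table's 57736 genes (52301 of them with a symbol). Of these 58 genes, 38 passed the filter on low counts and were tested. The study sequenced total RNA of 15 libraries in 5 groups of 3. The groups were senescent cells that carried a TXNRD1 hairpin (shTXNRD1), senescent cells given TRi-1, which inhibits the TXNRD1 enzyme, senescent cells given its vehicle DMSO, senescent control cells, and growing control cells. TXNRD1 is the cytosolic thioredoxin reductase, and the series title ties it to innate immune signalling in senescent cells. The labels leave out how senescence was brought on, the dose and time of TRi-1, what the control of the hairpin carried, how many hairpin sequences were used and whether replicates were separate cultures. What the p-values weigh is thus the spread among libraries, which may be technical. A single hairpin condition and a single chemical stand for TXNRD1 inhibition, and all 4 senescent groups share whatever brought on senescence.

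Cells take up amino acids through carriers that belong to several unrelated families. In the heterodimeric carriers, a heavy chain of the SLC3 family brings a light chain of the SLC7 family to the plasma membrane, and the light chain decides what is carried: SLC7A11 exchanges cystine for glutamate and so feeds glutathione synthesis, and SLC7A5 exchanges glutamine for leucine and other large neutral amino acids. SLC1 and SLC38 carriers use the sodium gradient to load glutamate, glutamine and small neutral amino acids. A further group, with SLC38A9, SLC38A7 and SLC36A1, sits on the lysosome, where amino acids released by protein breakdown are sensed by the mTORC1 pathway. Many surface carriers are induced through the transcription factor ATF4 when amino acids are scarce, and SLC7A11 also through NRF2, the main antioxidant regulator.

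Levels are given as CPM, counts scaled to library size by edgeR's TMM method, one value per library in the order of replicates 1, 2 and 3, or as mean ± SD with n = 3 libraries. Changes are log2 fold changes ± SE from edgeR's quasi-likelihood test, and a gene was called at a Benjamini-Hochberg adjusted p under 0.05 over 15994 genes. In bulk RNA, fewer cells that express a gene and less RNA per cell cannot be told apart. Library totals ran from 18033076 to 28909046 counts. TXNRD1 itself stood at 22.6 ± 2.30 CPM in shTXNRD1 cells and 515 ± 12.0 CPM in senescent control cells (log2 fold change -4.51, adjusted p = 2.02e-13), and at 431 ± 11.6 CPM in TRi-1 cells and 408 ± 19.3 CPM in DMSO cells (0.080, adjusted p = 0.483). Summed fibroblast markers ran from 23210 to 25960 CPM in shTXNRD1, 25730 to 26090 in TRi-1, 31820 to 34310 in DMSO, 28570 to 30660 in senescent control and 27010 to 31840 in growing control libraries. They were thus high in every library, but each inhibited group was wholly below its own reference. Epithelial markers summed to 45.5 to 82.4 CPM, mostly KRT18. Summed leukocyte markers, nearly all CD68, ran from 19.1 to 38.9 CPM in shTXNRD1, 91.6 to 93.4 in TRi-1, 56.5 to 74.0 in DMSO, 72.3 to 80.7 in senescent control and 15.6 to 26.03 in growing control libraries, while the pan-leukocyte gene PTPRC averaged at most 0.197 CPM in any group and CD3E was at 0 in every library. Summed endothelial markers, nearly all TEK, ran from 105 to 133 CPM in shTXNRD1, 51.7 to 55.0 in TRi-1, 85.3 to 91.1 in DMSO, 159.3 to 172 in senescent control and 109 to 134 in growing control libraries, while CDH5 averaged at most 0.343 CPM in any group.

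Expression of the family was uneven. Divided by exon length, SLC38A2 had the highest level of the genes compared here, at 112 CPM per kb in shTXNRD1, 139 in TRi-1, 194 in DMSO, 159 in senescent control and 280 in growing control cells. SLC7A11 stood at 18.3 CPM per kb in shTXNRD1, 3.13 in TRi-1, 2.96 in DMSO, 8.83 in senescent control and 64.6 in growing control cells. SLC6A15 stood at 58.5 CPM per kb in shTXNRD1, 37.7 in TRi-1, 35 in DMSO, 26 in senescent control and 1.24 in growing control cells. On this scale SLC7A11 was above SLC6A15 in growing cells and below it in all 4 senescent groups. The other 20 genes of the set were too low to test: none exceeded 0.600 CPM in any library (SLC36A2, a proton-coupled glycine and proline carrier, in 1 library), and SLC6A5, a glycine carrier of neurons, had no count in any library, which allows a level of up to 0.0091 CPM over all libraries.

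Senescent control cells differed from growing control cells in most of the tested carriers. SLC6A15, a sodium-coupled carrier of branched-chain amino acids and proline, was 20.9-fold higher in senescent cells, SLC38A5, a glutamine carrier, 15.3-fold higher, and SLC43A3 7.76-fold higher. In the other direction SLC38A4 fell by 3.03, SLC7A11 by 2.87 and SLC1A4 by 1.40 on the log2 scale. In all, 14 of the 38 tested genes (36.8%) were called higher and 13 (34.2%) lower, where 27.4% of all tested genes were called higher and 29.5% lower. The libraries of the 2 groups did not overlap for any of these 27 genes, nor for 98% of all called genes. The median size of the change, without its sign, was 0.81 for the transporters and 0.47 for all tested genes, and 8 of the higher and 5 of the lower calls were at least 2-fold, as were the calls of 21.2% of all tested genes. Those 8 include SLC6A19 and SLC6A20, at means of only 0.194 and 0.723 CPM in senescent control cells. Both were too low in growing libraries to pass the low-count filter through them. Carriers of glutamine and small neutral amino acids did not move as one: SLC38A2, SLC38A1 and SLC1A4 were lower in senescent cells, SLC38A5 was higher and SLC1A5 was not called. Of the tested glutamate carriers, SLC1A1, SLC1A2 and SLC1A3 were higher and SLC1A7 was not called (-0.059, adjusted p = 0.933).

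With the hairpin, set against senescent control cells, the taurine carrier SLC6A6 had the smallest p of the set and fell by 1.65. The glutamate carrier SLC1A3 was 6.98-fold lower and the glutamine carrier SLC1A5 by 1.21, whereas SLC6A15 rose 2.25-fold, SLC38A9, the lysosomal arginine sensor of mTORC1, 2.12-fold, SLC7A11 2.07-fold and its heavy chain SLC3A2 2.05-fold. Of the 38 genes, 9 (23.7%) were called higher and 13 (34.2%) lower, against 25.8% and 24.8% of all tested genes. The median change without its sign was 0.78 for the transporters and 0.41 for all tested genes. At least 2-fold were 6 of the higher and 7 of the lower calls, as were the calls of 13.5% of all tested genes. The 3 libraries of each group did not overlap for any of the 22 called transporters, nor for 96.8% of all called genes.

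With TRi-1, set against DMSO, changes were smaller. SLC6A6 fell by 0.82 and SLC7A2, a carrier of arginine and lysine, by 0.81, while no transporter reached 2-fold, as the calls of 2.39% of all tested genes did. Of the 38 genes, 5 (13.2%) were called higher and 11 (28.9%) lower, against 7.64% and 12.2% of all tested genes. The 5 higher calls became 3 without any 1 of DMSO replicates 2 and 3 or the 3 TRi-1 libraries. SLC3A2 rose by 0.31, and SLC7A11, at 30.2 ± 0.951 CPM in TRi-1 cells and 28.5 ± 2.20 CPM in DMSO cells, was not called (log2 fold change 0.085 ± 0.10, adjusted p = 0.618).

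DMSO cells were also set against senescent control cells, since both serve as references. SLC7A11 was 2.99-fold lower in DMSO cells and SLC7A14 2.65-fold lower, and SLC6A6 was 1.70-fold higher. Of the 38 genes, 5 (13.2%) were called higher and 9 (23.7%) lower, against 8.36% and 7.87% of all tested genes. The 5 higher calls became 3 without senescent control replicate 2, DMSO replicate 1 or DMSO replicate 3. The labels do not say whether the DMSO and control cells were grown and harvested together, so vehicle and handling cannot be told apart. The hairpin comparison and this one share the senescent control libraries, as does the senescence comparison, so their values are set side by side below and not correlated.

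SLC7A11 carries cystine inward in exchange for glutamate. It had 152, 178 and 199 CPM in shTXNRD1 libraries, 30.2, 31.1 and 29.2 in TRi-1, 30.7, 28.5 and 26.3 in DMSO, 86.6, 82.2 and 86.7 in senescent control, and 710.0, 589.5 and 569.5 in growing control libraries. The shTXNRD1 libraries lay above every other senescent library and below every growing one, and the TRi-1 and DMSO libraries overlapped. The effect of the hairpin exceeded that of TRi-1 by 0.97 ± 0.14 on the log2 scale (adjusted p = 0.000122). It rose by 1.05 with the hairpin (adjusted p = 9.34e-07) and fell by 2.87 in senescence (adjusted p = 1.48e-11). Its exons overlap SLC7A11-AS1, on the other strand, over 865 bases, with 49 counts there against 64856 for SLC7A11. SLC7A11 transcripts have a GC content of 35.4%. After a transcript GC correction, in which each library's smooth trend on transcript GC was taken out before the fit and which was added after the data were seen, its TRi-1 change was called at 0.28 (adjusted p = 8.15e-05). Each trend was taken against the mean of all 15 libraries, so the correction also removes GC trends that differ between groups.

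SLC3A2 is the heavy chain that SLC7A11, SLC7A5, SLC7A6, SLC7A7 and SLC7A8 share. It had 112, 108 and 103 CPM in shTXNRD1 libraries, 44.6, 44.1 and 43.2 in TRi-1, 33.0, 36.7 and 36.6 in DMSO, 52.9, 54.7 and 49.6 in senescent control, and 104, 125 and 119 in growing control libraries. The shTXNRD1 libraries overlapped the growing ones, and no TRi-1 library overlapped a DMSO one. Its change was 1.04 ± 0.072 with the hairpin (adjusted p = 3.82e-08), 0.31 ± 0.073 with TRi-1 (adjusted p = 0.00782) and -1.15 ± 0.072 in senescent against growing control cells (adjusted p = 5.80e-09). The TRi-1 call was lost at 0.23 (adjusted p = 0.0959) after the transcript GC correction. The hairpin exceeded TRi-1 by 0.73 ± 0.10 (adjusted p = 7.15e-05). Per kb of exon, SLC3A2 and SLC7A11 were close in shTXNRD1 cells (20.8 and 18.3 CPM per kb), SLC3A2 was higher in TRi-1 (8.50 and 3.13) and DMSO cells (6.84 and 2.96) and slightly so in senescent control cells (10.1 and 8.83), and SLC7A11 was higher in growing control cells (22.4 and 64.6). The lengths, 5.18 kb for SLC3A2 and 9.64 kb for SLC7A11, merge all annotated exons. Where the values are close, the order of the 2 genes may depend on these lengths.

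The promoter windows of SLC3A2 and SLC7A1 are shown because they are the 2 of 65 windows of the set, from 43 of the 58 genes, that hold both the core of the C/EBP-ATF response element (TGATGNAA), the site of ATF4, and the core of the antioxidant response element (TGACNNNGC), the site of NRF2. Windows run from 250 bases before to 50 bases after the transcript start, from RefSeq on build GRCh38.p14, written 5′ to 3′ in the direction of transcription, with the matches in capitals. No window of SLC7A11 was searched. The SLC3A2 window is chr11:62881449-62881748 on the plus strand and the SLC7A1 window chr13:29595639-29595938 on the minus strand. SLC3A2 has further windows at other transcript starts, beginning at chr11:62855859 and chr11:62880646, which hold neither core.
SLC3A2: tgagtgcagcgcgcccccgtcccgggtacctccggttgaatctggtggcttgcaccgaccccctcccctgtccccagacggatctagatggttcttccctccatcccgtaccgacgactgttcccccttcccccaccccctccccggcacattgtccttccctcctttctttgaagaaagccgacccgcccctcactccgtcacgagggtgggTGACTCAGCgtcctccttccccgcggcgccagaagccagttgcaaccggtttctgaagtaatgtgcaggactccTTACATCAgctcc
SLC7A1: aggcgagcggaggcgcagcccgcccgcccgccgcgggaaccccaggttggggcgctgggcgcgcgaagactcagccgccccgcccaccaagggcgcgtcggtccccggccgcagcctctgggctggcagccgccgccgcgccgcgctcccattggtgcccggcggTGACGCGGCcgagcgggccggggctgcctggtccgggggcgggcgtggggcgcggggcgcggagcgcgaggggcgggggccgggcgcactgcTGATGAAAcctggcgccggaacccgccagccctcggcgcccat
In the SLC3A2 window shown, the antioxidant core begins 37 bases before the start and the C/EBP-ATF core, read on the other strand, 37 bases after it. In SLC7A1 the antioxidant core begins 85 bases before and the C/EBP-ATF core 7 bases after the start, and in neither window do the matches overlap. SLC3A2 rose and SLC7A1 fell with the hairpin. On both strands, the C/EBP-ATF core was in 6 of the 65 windows (9.23%) and 3.62% of all 35116 windows of that length, the antioxidant core in 7 (10.8%) and 13.3%, and the E-box CACGTG in 10 (15.4%) and 7.26%. The other C/EBP-ATF matches were in single windows of SLC1A3, SLC1A4, SLC1A5 and SLC38A1, of which the first 3 fell and SLC38A1 rose with the hairpin. Each of these genes also has a window at another start without such a match. These letters describe the windows and are no measure of binding.

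**Figure D1:**
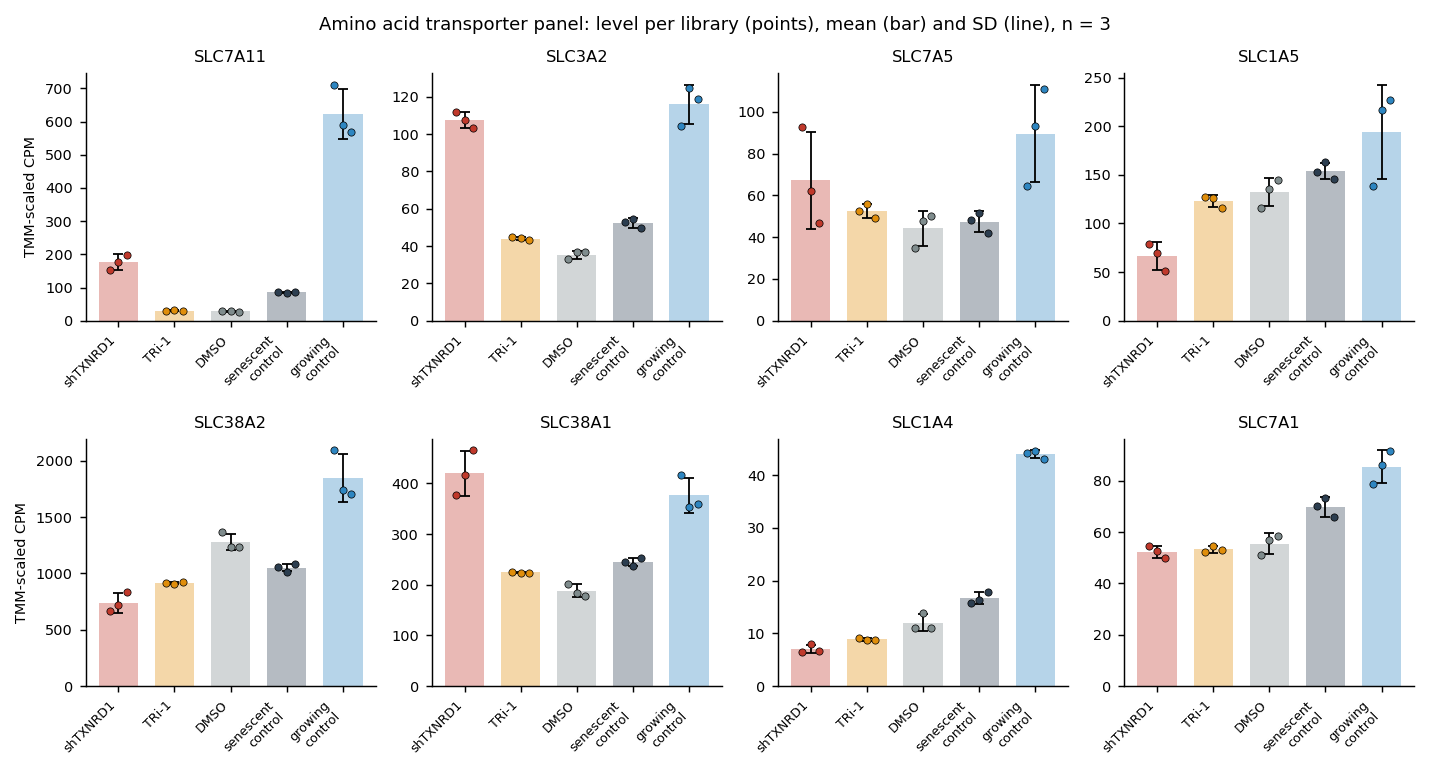
TMM-scaled CPM (y axis, starting at 0) of 8 amino acid transporter genes in shTXNRD1, TRi-1, DMSO, senescent control and growing control cells. Points are libraries, bars means and lines SD of 3 libraries. SLC7A11 is highest in growing cells (623 CPM on average) and SLC3A2 is nearly as high in shTXNRD1 (108 CPM) as in growing cells (116 CPM), while SLC1A4 and SLC1A5 are lowest in shTXNRD1 cells.

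Among the light chains, SLC7A5, the main leucine carrier of growing cells, had 92.6, 62.0 and 46.8 CPM in shTXNRD1 libraries, 52.5, 56.0 and 49.0 in TRi-1, 34.8, 47.8 and 49.9 in DMSO, 48.3, 51.7 and 41.8 in senescent control, and 64.5, 93.2 and 111 in growing control libraries. Senescent and growing control libraries did not overlap, and SLC7A5 was lower in the senescent ones by a log2 fold change of -0.92 ± 0.24 (adjusted p = 0.00588). The shTXNRD1 libraries spread more widely than those of any other senescent group and overlapped the senescent control. The hairpin change of 0.51 ± 0.24 was not called (adjusted p = 0.101), but was called at 0.71 without shTXNRD1 replicate 3 (adjusted p = 0.0250), at 0.50 with DESeq2 (adjusted p = 0.04997) and at 0.94 after the transcript GC correction (adjusted p = 4.94e-11).

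SLC7A7, which exports cationic amino acids in exchange for neutral ones, had 7.10, 7.31 and 6.94 CPM in shTXNRD1 libraries, 6.87, 6.38 and 7.06 in TRi-1, 7.62, 9.44 and 10.2 in DMSO, 7.83, 7.96 and 8.75 in senescent control, and 1.35, 1.85 and 1.79 in growing control libraries. Every senescent library was above every growing one, and the change in senescent control cells was 2.30 ± 0.14 (adjusted p = 4.19e-09). Its TRi-1 change of -0.43 (adjusted p = 0.0251) was lost without any 1 of DMSO replicates 2 and 3 or TRi-1 replicates 1, 2 and 3, at adjusted p from 0.0556 to 0.118. SLC7A6, a close relative, differed less, at 0.21 in senescent control against growing control cells (adjusted p = 0.00911, and 0.0718 with no filter on low counts) and 0.27 with TRi-1 (adjusted p = 0.00702). Exons of SLC7A6 overlap those of SLC7A6OS on the other strand over 3371 bases, and the strand used in counting is not given, so reads of the pair cannot be told apart. SLC7A8, at 0.825 ± 0.0784 CPM in shTXNRD1 and 0.457 ± 0.0645 CPM in senescent control cells, was called in no comparison (hairpin change 0.83, adjusted p = 0.0700, and 0.0271 with the compared groups fitted alone). Nor was SLC3A1, the heavy chain of the renal cystine carrier, whose 217 counts in all libraries may include reads of PREPL, which overlaps it over 1923 bases on the other strand.

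The cationic carriers bring in arginine, lysine and ornithine. SLC7A2 had 97.2, 111 and 124 CPM in shTXNRD1 libraries, 64.6, 64.6 and 69.2 in TRi-1, 125, 112 and 112 in DMSO, 144, 137 and 146 in senescent control, and 85.0, 75.6 and 70.5 in growing control libraries. Senescent control libraries were all above the growing ones, and each inhibited group was wholly below its own reference. The change was 0.88 ± 0.089 in senescence (adjusted p = 1.02e-06), -0.36 ± 0.088 with the hairpin (adjusted p = 0.00337) and -0.81 ± 0.089 with TRi-1 (adjusted p = 2.35e-05). SLC7A1, the carrier most cells rely on, moved less. It averaged 52.4 ± 2.31 CPM in shTXNRD1, 53.3 ± 1.25 in TRi-1, 55.5 ± 4.05 in DMSO, 69.9 ± 3.90 in senescent control and 85.6 ± 6.37 in growing control cells, and was called lower with the hairpin (-0.42, adjusted p = 0.000261), in senescence (-0.29, adjusted p = 0.00308) and in DMSO against senescent control cells (-0.33, adjusted p = 0.00599).

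SLC7A14, a lysosomal member of the same subfamily, was the one gene called in opposite directions under the 2 inhibitions. After the transcript GC correction 2 more were, SLC7A6 (hairpin -0.14, adjusted p = 0.00454, TRi-1 0.32) and SLC43A1 (hairpin 0.66, adjusted p = 5.72e-05, TRi-1 -0.34, adjusted p = 0.0233), and SLC7A6 was also called lower with the hairpin without shTXNRD1 replicate 3 (-0.20, adjusted p = 0.00755). With that library and growing control replicate 1 left out, SLC6A8 was also called both ways, its TRi-1 change at 0.39 (adjusted p = 0.0346). SLC7A14 had 4.05, 3.37 and 4.26 CPM in shTXNRD1 libraries, 6.62, 6.42 and 6.13 in TRi-1, 4.46, 3.90 and 5.07 in DMSO, 12.4, 11.9 and 11.6 in senescent control, and 16.1, 15.2 and 16.7 in growing control libraries. The shTXNRD1 and DMSO libraries overlapped at the bottom, with TRi-1 above both and the controls above all of them. The change was -1.62 ± 0.11 with the hairpin (adjusted p = 3.50e-08) and 0.51 ± 0.11 with TRi-1 (adjusted p = 0.00551), and DMSO cells were lower than senescent control cells by a log2 fold change of -1.41 ± 0.11 (adjusted p = 1.75e-06). The 2 references thus differed from each other by nearly as much as the hairpin change.

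Of the SLC1 family, 6 members were tested, and none was called higher under either inhibition while 4 were called lower with the hairpin and 4 with TRi-1, where 24.8% and 12.2% of all tested genes were called lower. SLC1A3, a high-affinity glutamate and aspartate carrier best known from astrocytes, had 0.600, 0.438 and 0.396 CPM in shTXNRD1 libraries, 3.00, 3.28 and 3.47 in TRi-1, 5.23, 5.59 and 5.51 in DMSO, 3.33, 3.11 and 3.65 in senescent control, and 0.714, 1.07 and 0.846 in growing control libraries. Every shTXNRD1 library was below every growing one, and the TRi-1 libraries overlapped the senescent control although they were all below DMSO. The change was -2.80 ± 0.18 with the hairpin (adjusted p = 2.48e-08), -0.74 ± 0.14 with TRi-1 (adjusted p = 0.00235), 1.93 ± 0.17 in senescence (adjusted p = 1.93e-07) and 0.69 ± 0.14 in DMSO against senescent control cells (adjusted p = 0.00407).

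SLC1A1, the glutamate carrier that also takes up cysteine, had 20.5, 22.7 and 24.3 CPM in shTXNRD1 libraries, 33.5, 32.3 and 33.8 in TRi-1, 52.4, 47.4 and 47.3 in DMSO, 50.2, 46.8 and 49.0 in senescent control, and 27.5, 22.7 and 22.5 in growing control libraries. Senescent control and DMSO libraries overlapped at the top, TRi-1 lay between, and shTXNRD1 and growing libraries overlapped at the bottom. The change was -1.11 ± 0.086 with the hairpin (adjusted p = 1.21e-07) and -0.56 ± 0.084 with TRi-1 (adjusted p = 0.000349). SLC1A2, the third glutamate carrier, rose in senescence (0.95, adjusted p = 4.04e-05) and fell with TRi-1 (-0.58, adjusted p = 0.00962), a call lost at -0.48 without DMSO replicate 1 (adjusted p = 0.0508). Its hairpin change was -0.21 (adjusted p = 0.211).

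SLC1A4 and SLC1A5 are the neutral members, which exchange alanine, serine and cysteine and, for SLC1A5, glutamine. SLC1A4 had 6.55, 7.96 and 6.64 CPM in shTXNRD1 libraries, 9.11, 8.69 and 8.71 in TRi-1, 11.1, 13.9 and 11.05 in DMSO, 15.7, 16.4 and 17.9 in senescent control, and 44.2, 44.6 and 43.1 in growing control libraries. The 5 groups stood in that order with no overlap between neighbours. It fell by 1.24 with the hairpin (adjusted p = 2.27e-07), by 0.44 with TRi-1 (adjusted p = 0.00739), by 1.40 in senescence (adjusted p = 1.72e-08) and by 0.48 in DMSO against senescent control cells (adjusted p = 0.00424).

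SLC1A5 had 79.3, 69.8 and 50.9 CPM in shTXNRD1 libraries, 127, 127 and 116 in TRi-1, 116, 136 and 144 in DMSO, 153, 163 and 146 in senescent control, and 138, 217 and 227 in growing control libraries. Only the shTXNRD1 libraries were clear of all others, at a hairpin change of -1.21 ± 0.18 (adjusted p = 0.000121). The senescence change of -0.33 ± 0.18 was not called (adjusted p = 0.131), and growing control replicate 1 alone of its group fell below senescent control libraries. Without that library the value was -0.53 (adjusted p = 0.00877), and after the transcript GC correction -0.83 (adjusted p = 6.17e-09). That correction also gave calls for TRi-1 (-0.25, adjusted p = 0.00463) and for DMSO against senescent control cells (-0.16, adjusted p = 0.0484).

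The SLC6 family holds amino acid carriers beside those of transmitters, taurine and creatine. SLC6A15 had 443, 514 and 584 CPM in shTXNRD1 libraries, 334, 329.6 and 329.8 in TRi-1, 337, 292 and 294 in DMSO, 233, 219 and 234 in senescent control, and 12.9, 9.41 and 10.4 in growing control libraries. Every senescent library was far above every growing one, with shTXNRD1 above the rest and TRi-1 overlapping DMSO. The change was 4.39 ± 0.12 in senescence (adjusted p = 1.02e-12), 1.17 ± 0.10 with the hairpin (adjusted p = 5.48e-07) and 0.11 ± 0.10 with TRi-1 (adjusted p = 0.521). DMSO cells were higher than senescent control cells by 0.43 (adjusted p = 0.0112), a call lost without DMSO replicate 1 (0.36, adjusted p = 0.0563).

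SLC6A6, the taurine carrier, had 35.1, 35.2 and 33.4 CPM in shTXNRD1 libraries, 104, 103 and 108 in TRi-1, 179.8, 188 and 186 in DMSO, 107, 111 and 109 in senescent control, and 157, 161 and 161 in growing control libraries. Replicates lay close together and each inhibited group was wholly below its own reference. The change was -1.65 ± 0.047 with the hairpin (adjusted p = 8.42e-12), -0.82 ± 0.045 with TRi-1 (adjusted p = 2.98e-08), -0.55 ± 0.045 in senescence (adjusted p = 1.14e-07) and 0.76 ± 0.045 in DMSO against senescent control cells (adjusted p = 1.94e-07). The TRi-1 libraries overlapped those of the senescent control.

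SLC6A8, the creatine carrier, had 42.9, 31.6 and 24.6 CPM in shTXNRD1 libraries against 48.2, 54.3 and 51.0 in senescent control libraries. The groups did not overlap, and SLC6A8 fell by 0.63 (adjusted p = 0.0117), a call lost at -0.56 with the 2 compared groups fitted alone (adjusted p = 0.0925) and at -0.14 after the transcript GC correction (adjusted p = 0.173). It rose by 0.80 in senescent against growing control cells (adjusted p = 0.00231). SLC6A9, a glycine carrier, fell by 1.06 with the hairpin (adjusted p = 0.00545) and by 0.88 in senescence (adjusted p = 0.00820), and its exons overlap CCDC24 on the other strand over 404 bases. SLC6A19 and SLC6A20, neutral and imino acid carriers of kidney and gut, were low. SLC6A19 had 67 counts in the 3 shTXNRD1 libraries and 13 in the senescent control (ratio 5.30, 95% interval 2.90 to 10.5 from counting error only), and 13 counts in senescent control and 1 in growing control libraries (ratio 14.2, interval 2.13 to 603). Only its shTXNRD1 libraries, at 23, 27 and 17 counts, were high enough for the low-count filter. SLC6A19 was thus tested only through the group where it is high. Its call, among the 9 higher with the hairpin, is therefore no separate evidence of a rise. Its senescence call, among the 14 higher, rests on those 13 counts against 1. SLC6A20 was called higher in senescence by 1.64 (adjusted p = 0.00376), at 0.723 ± 0.170 CPM in senescent control and 0.225 ± 0.0549 CPM in growing control cells. Its growing control libraries, at 5, 7 and 4 counts, were too low for the low-count filter. SLC6A20 was thus tested only through senescent groups, where it is higher, and its senescence call is likewise no separate evidence of a rise. SLC6A16, a member with no settled substrate, had 0.815, 0.786 and 0.549 CPM in TRi-1 libraries, 1.04, 1.42 and 1.52 in DMSO, 0.689, 0.445 and 0.650 in senescent control, and 0.952, 1.77 and 1.74 in growing control libraries. It was lower in senescent than in growing control cells (-1.30, adjusted p = 0.00127), lower with TRi-1 (-0.90, adjusted p = 0.0358) and higher in DMSO than in senescent control cells (1.15, adjusted p = 0.0132). The TRi-1 call was lost without any 1 of DMSO replicates 2 and 3 or the 3 TRi-1 libraries (adjusted p from 0.0613 to 0.144), and the DMSO call without senescent control replicate 2 (adjusted p = 0.0635) or DMSO replicate 3 (adjusted p = 0.0624). SLC6A4, the serotonin carrier, SLC1A7 and SLC36A3 were tested at means of at most 0.891 CPM in any group and were called in no comparison, although single-library removals called the hairpin changes of SLC1A7 (-1.84 without senescent control replicate 1, adjusted p = 0.0381) and SLC6A4 (1.00 without shTXNRD1 replicate 3, adjusted p = 0.0364).

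**Figure D2:**
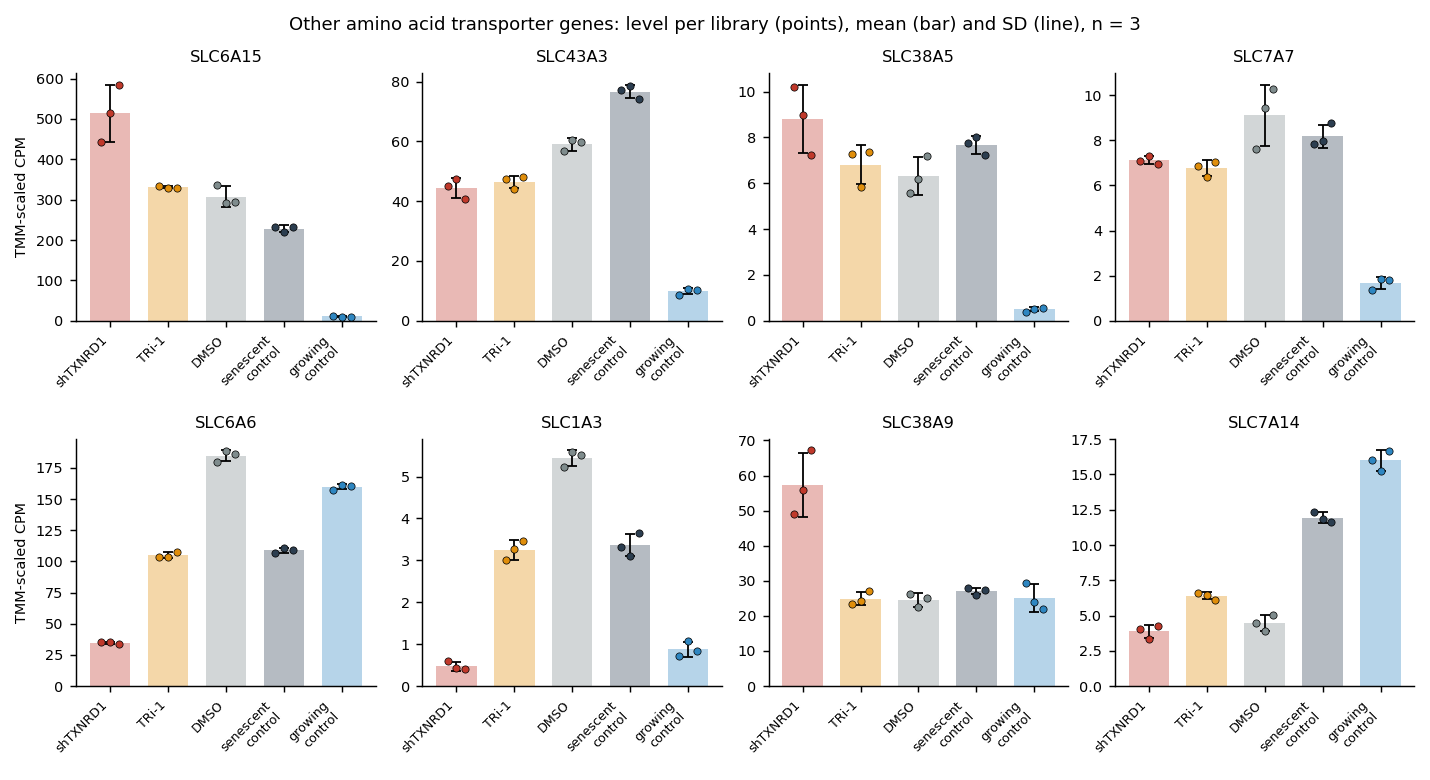
TMM-scaled CPM (y axis, starting at 0) of 8 further amino acid transporter genes in shTXNRD1, TRi-1, DMSO, senescent control and growing control cells. Points are libraries, bars means and lines SD of 3 libraries. SLC6A15, SLC43A3, SLC38A5 and SLC7A7 are low in growing cells and higher in all 4 senescent groups, SLC38A9 is high in shTXNRD1 cells alone, and SLC7A14 is lowest in shTXNRD1 and DMSO cells.

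The SLC38 family was tested in 8 members, of which 4 rose and 2 fell with the hairpin, where 25.8% of all tested genes rose and 24.8% fell. SLC38A2, the carrier of glutamine and alanine that cells raise when starved of amino acids, had 662, 719.7 and 836 CPM in shTXNRD1 libraries, 919, 904 and 926 in TRi-1, 1365, 1233 and 1238 in DMSO, 1058.5, 1016 and 1082 in senescent control, and 2092, 1744 and 1706 in growing control libraries. No library of one group reached into another. It fell by 0.51 ± 0.089 with the hairpin (adjusted p = 0.000274), by 0.48 ± 0.089 with TRi-1 (adjusted p = 0.00175) and by 0.81 ± 0.089 in senescence (adjusted p = 2.60e-06). The DMSO change of 0.28 (adjusted p = 0.0449) was lost at adjusted p from 0.0757 to 0.161 without any 1 of the 3 DMSO or 3 senescent control libraries.

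SLC38A1, a glutamine carrier close to SLC38A2, had 378, 417 and 465 CPM in shTXNRD1 libraries, 226, 224 and 224 in TRi-1, 202, 184 and 178 in DMSO, 245, 238 and 253 in senescent control, and 417, 354 and 360.0 in growing control libraries. The shTXNRD1 and growing libraries overlapped at the top, in contrast to SLC38A2. It rose by 0.78 ± 0.081 with the hairpin (adjusted p = 2.32e-06) and fell by 0.62 ± 0.081 in senescence (adjusted p = 1.38e-05). Its TRi-1 change of 0.26 (adjusted p = 0.0376) was lost at adjusted p from 0.0747 to 0.133 without any 1 of DMSO replicates 2 and 3 or TRi-1 replicates 1, 2 and 3.

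SLC38A9, SLC38A7 and SLC36A1, all found on the lysosome, rose with the hairpin. SLC38A9, which senses arginine for mTORC1, had 49.1, 55.9 and 67.2 CPM in shTXNRD1 libraries, 23.5, 24.2 and 27.1 in TRi-1, 26.2, 22.5 and 25.1 in DMSO, 27.9, 26.003 and 27.4 in senescent control, and 29.5, 24.0 and 21.9 in growing control libraries. The shTXNRD1 libraries stood apart and the other 4 groups overlapped, with a hairpin change of 1.08 ± 0.12 (adjusted p = 4.89e-06) and a TRi-1 change of 0.023 ± 0.12 (adjusted p = 0.920). SLC38A7, which exports glutamine and asparagine from the lysosome, had 108, 103 and 79.1 CPM in shTXNRD1 libraries, 42.5, 44.9 and 48.8 in TRi-1, 30.1, 36.2 and 36.7 in DMSO, 49.9, 52.9 and 49.8 in senescent control, and 28.04, 34.4 and 38.4 in growing control libraries. It was above its own reference in all 3 shTXNRD1 libraries (0.93 ± 0.13, adjusted p = 3.14e-05), all 3 TRi-1 libraries (0.40 ± 0.13, adjusted p = 0.0405) and all 3 senescent control libraries (0.60 ± 0.13, adjusted p = 0.00113). The TRi-1 call was lost without any 1 of the 6 TRi-1 and DMSO libraries, at adjusted p from 0.0583 to 0.164. SLC36A1, the proton-coupled carrier that lets small amino acids out of the lysosome, rose by 0.26 with the hairpin (adjusted p = 0.00380) and by 0.59 in senescence (adjusted p = 2.56e-06), and its TRi-1 change was 0.19 (adjusted p = 0.0523, and 0.0484 with limma-voom). SLC7A14, also lysosomal, fell with the hairpin, so the grouping by place, which was made after the values were seen, does not hold for every member. SLC36A4, a relative of SLC36A1 with tryptophan and proline as substrates, had 20.3, 18.9 and 20.3 CPM in TRi-1 libraries and 32.3, 25.99 and 26.8 CPM in DMSO libraries. These did not overlap, and SLC36A4 fell by 0.52 with TRi-1 (adjusted p = 0.00305), with no call in the other comparisons. Its senescence change was called at -0.28 without growing control replicate 3 (adjusted p = 0.0459), its hairpin change at -0.31 after the transcript GC correction (adjusted p = 6.35e-05) and -0.22 without the 2 low-GC libraries shTXNRD1 replicate 3 and growing control replicate 1 (adjusted p = 0.0436), and its DMSO change at 0.17 to 0.27 under 3 alternatives (adjusted p from 0.0138 to 0.0439).

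SLC38A5 had 10.2, 8.97 and 7.24 CPM in shTXNRD1 libraries, 7.28, 5.82 and 7.35 in TRi-1, 5.60, 6.17 and 7.21 in DMSO, 7.75, 8.01 and 7.25 in senescent control, and 0.397, 0.534 and 0.564 in growing control libraries. All senescent libraries were far above the growing ones, the DMSO libraries lay just below those of the senescent control, and TRi-1 overlapped every other senescent group. There was a senescence change of 3.94 ± 0.19 (adjusted p = 3.77e-10), with no call under either inhibition (hairpin 0.20, adjusted p = 0.271, TRi-1 0.10, adjusted p = 0.667). SLC38A4, a liver and placenta carrier of neutral amino acids, went the other way, at 0.357 ± 0.158 CPM in shTXNRD1, 0.691 ± 0.0853 in senescent control and 5.69 ± 1.17 in growing control cells, a senescence change of -3.03 ± 0.26 (adjusted p = 1.86e-07) and a hairpin change of -0.97 ± 0.34 (adjusted p = 0.0296). The hairpin call was lost without senescent control replicate 1 or 3 or shTXNRD1 replicate 2, at adjusted p from 0.0723 to 0.180. SLC38A6 had 36.8, 40.6 and 44.3 CPM in shTXNRD1 libraries, against 16.1, 14.8 and 17.0 in senescent control libraries, with no overlap and a change of 1.35 ± 0.088 (adjusted p = 2.23e-08). It shares 245 exon bases with TRMT5 on the other strand.

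SLC43A3, which despite its family carries purine nucleobases, had 45.04, 47.3 and 40.6 CPM in shTXNRD1 libraries, 47.3, 44.0 and 47.9 in TRi-1, 56.6, 60.6 and 59.8 in DMSO, 77.2, 78.6 and 74.3 in senescent control, and 8.73, 10.6 and 10.3 in growing control libraries. The senescent control stood highest, DMSO next, and the 2 inhibited groups overlapped below them, all far above growing cells. The change was 2.96 ± 0.084 in senescence (adjusted p = 1.10e-12), -0.79 ± 0.076 with the hairpin (adjusted p = 1.13e-06) and -0.35 ± 0.076 with TRi-1 (adjusted p = 0.00574). SLC43A1 and SLC43A2, the leucine carriers of the family, were called in none of these 3 comparisons, with 10.1 ± 1.504 and 7.89 ± 3.00 CPM in shTXNRD1 and 8.15 ± 1.01 and 7.70 ± 1.17 CPM in senescent control cells. The hairpin change of SLC43A1, 0.31 (adjusted p = 0.0703), was called at 0.41 without senescent control replicate 2 (adjusted p = 0.0384) and at 0.38 without shTXNRD1 replicate 3 (adjusted p = 0.0478). After the transcript GC correction the hairpin changes of SLC43A1 (0.66, adjusted p = 5.72e-05) and SLC43A2 (0.37, adjusted p = 0.0212) and the TRi-1 change of SLC43A1 (-0.34, adjusted p = 0.0233) were called.

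The hairpin and TRi-1 were compared through their separate references. Called lower under both were 7 genes (SLC7A2, SLC1A3, SLC1A1, SLC1A4, SLC6A6, SLC38A2 and SLC43A3), which are 53.8% of the hairpin's 13 and 63.6% of TRi-1's 11. Called higher under both were 3 (SLC38A7, SLC38A1 and SLC3A2), which are 33.3% of 9 and 60% of 5. In all 3, the TRi-1 libraries were above DMSO but wholly below the senescent control. Means in TRi-1, DMSO and senescent control cells were 45.4, 34.3 and 50.9 CPM for SLC38A7 and 225, 188 and 245 CPM for SLC38A1. For SLC3A2 they were 44.0, 35.4 and 52.4 CPM. The TRi-1 calls of SLC38A7 and SLC38A1 were lost with single libraries left out, and that of SLC3A2 after the transcript GC correction. Over all tested genes, those called lower under both were 21.9% of the hairpin's lower calls and 44.4% of TRi-1's, and those called higher under both 10.5% and 35.6%. SLC7A14 was called in opposite directions, 11 genes were called with the hairpin alone, 5 with TRi-1 alone and 11 in neither. This split was not counted over all tested genes. Of those, 25.8% were called higher and 24.8% lower with the hairpin, and 7.64% and 12.2% with TRi-1. The test of the difference itself called 11 genes (28.9%) as higher under the hairpin than under TRi-1 and 10 (26.3%) as lower, against 22.1% and 19.5% of all tested genes. SLC38A6 differed by 1.34 ± 0.12 (adjusted p = 1.86e-06), SLC6A15 by 1.06 ± 0.15 (adjusted p = 6.38e-05) and SLC38A9 by 1.06 ± 0.17 (adjusted p = 0.000252), and each was near 0 with TRi-1. SLC1A3 differed by -2.06 ± 0.24 (adjusted p = 1.24e-05) and SLC6A6 by -0.84 ± 0.065 (adjusted p = 3.08e-07), falling under both but more with the hairpin, whereas SLC7A2 fell more with TRi-1 (difference 0.45 ± 0.12, adjusted p = 0.0102). For SLC38A2 the 2 changes were nearly equal, with a difference of -0.028 ± 0.13 (adjusted p = 0.874), which became -0.32 (adjusted p = 9.54e-07) after the transcript GC correction. The 11 higher calls became 7 without DMSO replicate 3.

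**Figure D3:**
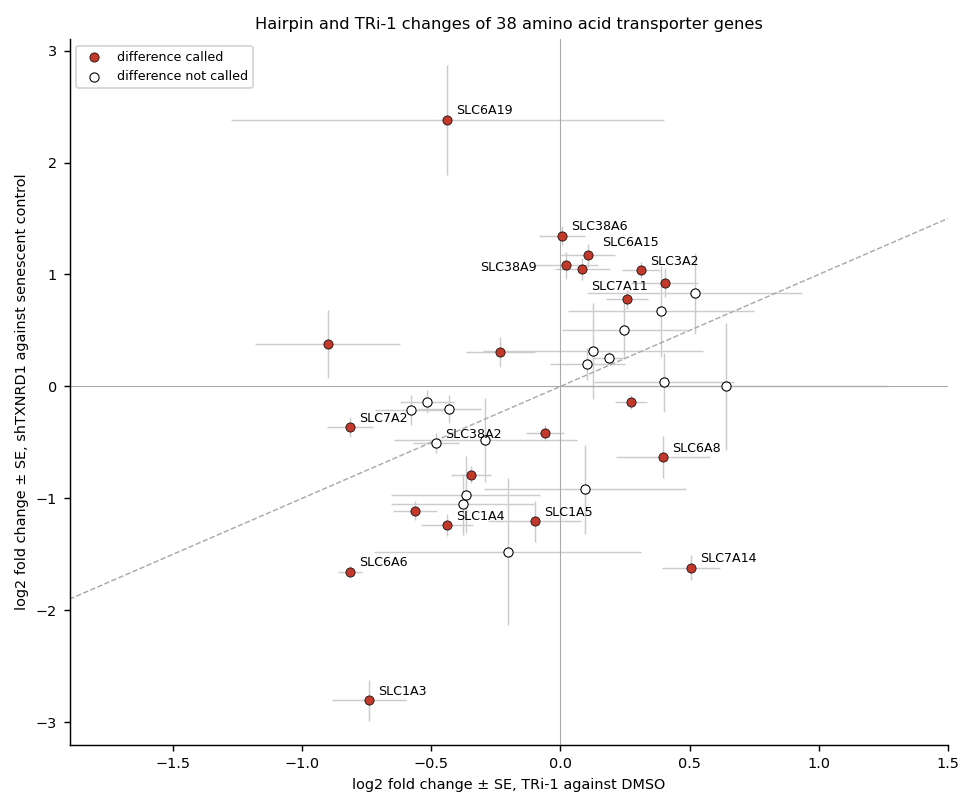
Log2 fold changes ± SE of the 38 tested genes in shTXNRD1 against senescent control cells (y axis) and TRi-1 against DMSO cells (x axis). The dashed line marks equal change and filled points have a called difference. SLC6A15, SLC38A6, SLC38A9 and SLC7A11 sit above 1 on the y axis and near 0 on the x axis, and SLC7A14 is the lowest of the filled points to the right of 0 on the x axis.

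The spread between replicates of the GC-rich members followed the library. Within a group, read counts tilted with transcript GC by -0.271 log2 units per 10 points of GC in shTXNRD1 replicate 3 and -0.261 in growing control replicate 1, and by 0.250 in shTXNRD1 replicate 1 and 0.172 in growing control replicate 3. Against the mean of all 15 libraries, the tilt was 0.081, -0.149 and -0.441 in shTXNRD1 libraries and 0.178, 0.225 and 0.155 in TRi-1. It was -0.086, 0.114 and 0.134 in DMSO, 0.1, 0.182 and 0.0056 in senescent control, and -0.427, -0.078 and 0.0057 in growing control libraries. The transcript GC correction took out a trend of this second kind, so it moved differences between groups as well as the spread of replicates. SLC38A10, with a transcript GC of 64.3%, had 48.2, 26.6 and 15.3 CPM in shTXNRD1 libraries and 18.96, 38.1 and 53.0 CPM in growing control libraries, and was called in no comparison. Its hairpin change of -0.92 was called at -1.44 without shTXNRD1 replicate 1 (adjusted p = 0.00951), at -1.05 with limma-voom (adjusted p = 0.0326) and at -0.40 after the transcript GC correction (adjusted p = 0.00931). SLC7A5 (61.1%) and SLC1A5 (61.3%) showed the same order of libraries, and SLC7A11 (35.4%) the opposite one. The transcript GC correction called small TRi-1 changes of SLC6A15 (0.27, adjusted p = 5.44e-05) and SLC38A9 (0.21, adjusted p = 0.0218) and a hairpin change of SLC38A5 (0.49, adjusted p = 0.000445). Over the set the median SD within groups was 0.16 on the log2 scale, as it was over all tested genes (0.161 and 0.159). Without shTXNRD1 replicate 3 and growing control replicate 1, the counts called higher and lower were 15 and 14 in senescence, 12 and 15 with the hairpin, 7 and 11 with TRi-1 and 6 and 11 in DMSO against senescent control cells.

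**Figure D4:**
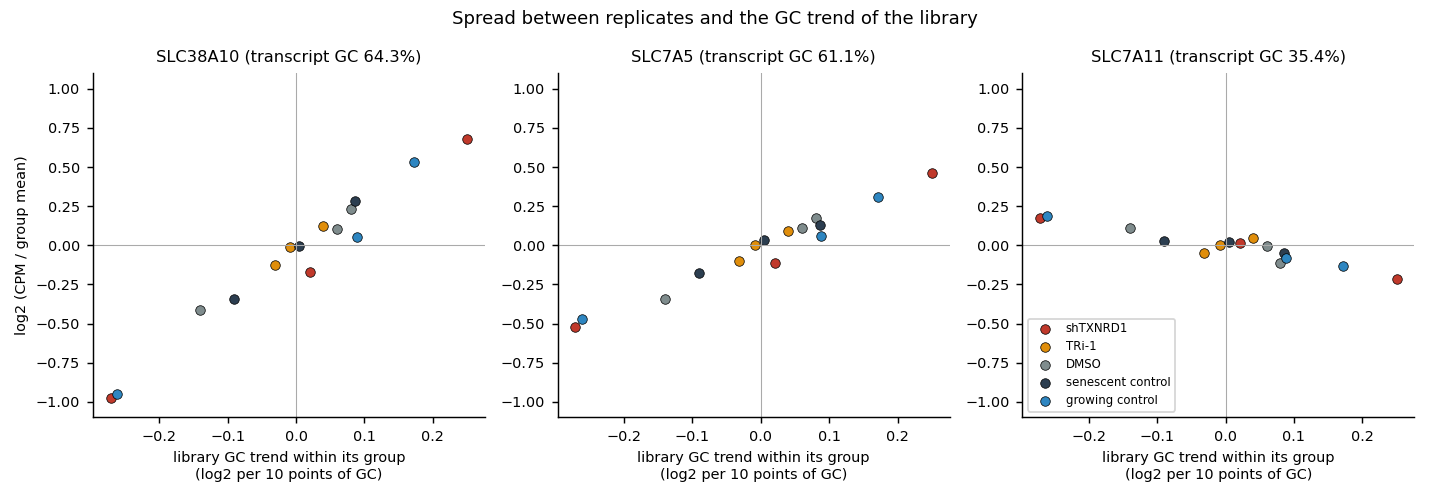
Log2 ratio of a library's CPM to its group mean (y axis) for SLC38A10, SLC7A5 and SLC7A11, against the library's GC trend within its group (x axis, log2 units per 10 points of transcript GC). Each point is 1 of 15 libraries, coloured by group. SLC38A10 and SLC7A5 (transcript GC 64.3% and 61.1%) climb from lower left to upper right, and SLC7A11 (35.4%) runs the other way.

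Genes around the carriers were read from lists written with earlier results of these data known. Their counts stand against all tested genes, of which 25.8% rose and 24.8% fell with the hairpin, 7.64% rose and 12.2% fell with TRi-1, and 27.4% rose and 29.5% fell in senescence. Of 27 regulators and targets of the amino acid response, 5 rose and 14 fell with the hairpin, 2 rose and 5 fell with TRi-1, and 4 rose and 17 fell in senescence. PSAT1, an enzyme of serine synthesis, fell by 1.87 with the hairpin (adjusted p = 8.32e-09) and by 2.59 in senescence (adjusted p = 3.58e-11). WARS1, the tryptophan tRNA synthetase, fell by 1.35 in senescence (adjusted p = 2.31e-12) and ASNS, the asparagine synthetase, fell by 2.48 (adjusted p = 1.81e-12). ALDH1L2, a mitochondrial folate enzyme, fell by 1.58 with the hairpin (adjusted p = 5.13e-08). ATF4 itself averaged 238 ± 19.9 CPM in shTXNRD1 and 215 ± 9.83 in senescent control cells and was not called (0.15, adjusted p = 0.0714), but was called at 0.20 without shTXNRD1 replicate 1 (adjusted p = 0.00514), at 0.19 with upper-quartile scaling (adjusted p = 0.0186), at 0.21 with the compared groups alone (adjusted p = 0.0177) and at 0.46 after the transcript GC correction (adjusted p = 0.0447). The carriers on this pathway split under the hairpin: SLC7A11, SLC3A2 and SLC38A1 rose beside falling PSAT1 and PHGDH (-0.76, adjusted p = 0.00107), and SLC1A4, SLC1A5, SLC38A2 and SLC7A1 fell.

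Of 12 genes of glutathione synthesis from cystine, 2 rose and 3 fell with the hairpin, 2 rose and 2 fell with TRi-1, and 2 rose and 5 fell in senescence. GCLC, the catalytic subunit of the first enzyme, averaged 65.6 ± 5.68 CPM in shTXNRD1, 75.3 ± 1.23 in TRi-1, 93.9 ± 3.24 in DMSO, 94.7 ± 3.27 in senescent control and 59.2 ± 3.32 in growing control cells, and fell with the hairpin (-0.53, adjusted p = 1.36e-05) and TRi-1 (-0.32, adjusted p = 0.00381). CTH, which makes cysteine from cystathionine, rose by 0.87 with the hairpin (adjusted p = 0.000649). The glutathione reductase GSR fell by 1.29 in senescence (adjusted p = 9.11e-10). SLC7A11 rose with the hairpin while GCLC fell.

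Of 11 tested enzymes of glutamine and glutamate, 3 rose and 5 fell with the hairpin, 1 rose and 3 fell with TRi-1, and 2 rose and 9 fell in senescence. GFPT2, which uses glutamine to make glucosamine phosphate, fell by 1.89 with the hairpin (adjusted p = 1.54e-11) and rose by 2.47 in senescence (adjusted p = 1.47e-13). GLUL, the glutamine synthetase, had 74.8, 79.9 and 83.3 CPM in shTXNRD1 libraries, 38.8, 41.4 and 38.8 in TRi-1, 57.2, 55.5 and 54.6 in DMSO, 47.8, 46.7 and 50.1 in senescent control, and 93.8, 90.9 and 89.3 in growing control libraries. It rose by 0.72 with the hairpin (adjusted p = 1.48e-07) and fell by 0.49 with TRi-1 (adjusted p = 4.01e-05), with no overlap in either comparison and a difference of 1.21 ± 0.081 (adjusted p = 7.13e-08).

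Of 28 genes of amino acid sensing by mTORC1, 11 rose and 3 fell with the hairpin, 6 rose and 1 fell with TRi-1, and 7 rose and 6 fell in senescence. RRAGD, one of the small GTPases that bring mTORC1 to the lysosome, averaged 4.74 ± 0.605 CPM in shTXNRD1, 1.40 ± 0.223 in TRi-1, 0.809 ± 0.144 in DMSO, 1.31 ± 0.183 in senescent control and 0.114 ± 0.0634 in growing control cells. It rose by 1.86 with the hairpin (adjusted p = 5.52e-06), by 0.80 with TRi-1 (adjusted p = 0.0319) and by 3.46 in senescence (adjusted p = 6.00e-07). The TRi-1 call was lost without DMSO replicate 2 or 3 or TRi-1 replicate 1 or 2, at adjusted p from 0.0671 to 0.132. TSC1, a brake on mTORC1, rose by 0.84 (adjusted p = 1.23e-07) and SESN1, a leucine-sensing inhibitor, by 1.07 (adjusted p = 1.05e-06) with the hairpin. FLCN, which acts on these GTPases, rose by 0.62 with TRi-1 (adjusted p = 0.000313) and by 0.94 in senescence (adjusted p = 8.36e-07). Of 18 tested genes listed as other amino acid carriers, 8 rose and 3 fell with the hairpin, 5 rose and 0 fell with TRi-1, and 8 rose and 0 fell in senescence. CTNS, which exports cystine from the lysosome, had 41.4, 43.3 and 39.0 CPM in shTXNRD1 libraries, 20.9, 22.2 and 19.9 in TRi-1, 13.3, 14.97 and 15.1 in DMSO, 21.5, 21.4 and 23.9 in senescent control, and 11.6, 12.0 and 9.54 in growing control libraries. Each inhibited group was wholly above its own reference (hairpin 0.89, adjusted p = 1.77e-06, TRi-1 0.54, adjusted p = 0.00104), and senescent control libraries were all above the growing ones (1.01, adjusted p = 4.42e-07). The TRi-1 libraries overlapped those of the senescent control, and the DMSO libraries lay below both.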

How the data were processed

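Total RNA libraries of 15 IMR90 samples were prepared with a KAPA RNA HyperPrep kit, per the labels' protocols. The authors deposited unscaled counts, which are whole numbers for each Ensembl gene in each library. RSEM 1.2.3, DESeq2 and the builds hg19 and mm10 are named in the submitters' processing notes, without their roles. Whether the counts are RSEM estimates that were then rounded is not stated. The aligner, annotation and strand were not given in the sources used here, and reads shared by similar or overlapping genes may be split in ways not known. Identifiers were matched to symbols (52301 of 57736 genes), and exon length and transcript GC were taken by identifier from GENCODE v29, of another build, so no coordinates of the counted genes are given. Exon length is that of all annotated exons of a gene merged, which can exceed that of the transcript expressed.

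Counts were scaled by TMM and fitted in a single model over all 15 libraries with edgeR 4.0.16 (quasi-likelihood F test, robust; filterByExpr by group; R 4.3.3). P-values are two-sided and adjusted by Benjamini-Hochberg over 15994 genes, and called under 0.05. For a single gene, exact permutation of 3 against 3 libraries gives no p below 0.1. Totals ran from 18033076 to 28909046 counts (median 21156213). The counting interval of SLC6A19 is an exact 95% binomial one, and the limit for genes at 0 is 3 counts over all libraries, and both cover counting error only. Genes are described in full by a rule: a panel of 8 (SLC7A11, SLC3A2, SLC7A5, SLC1A5, SLC38A2, SLC7A1, SLC1A4 and SLC38A1), called genes with a log2 fold change and a mean log2 CPM that are both at least 1, and the 2 called genes of smallest p per class. Further members are named beyond the rule, after their values were seen. The members, lists and rule were chosen with earlier results of these data known. Alternatives were RLE and upper-quartile scaling, no low-count filter, a minimum mean CPM of 5, DESeq2 1.42.0, limma-voom (limma 3.58.1), a replicate block, the compared groups alone and each library left out. A further pair, a transcript GC correction and the removal of growing control replicate 1 with shTXNRD1 replicate 3, were added after the data were seen. Promoter windows are from RefSeq on GRCh38.p14.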

Additional observations from a re-analysis of the deposited data

Results flagged for a closer look

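The test of the hairpin effect minus the TRi-1 effect, each against its own reference, called 21 of the 38 tested transporter genes, which are listed here because the 2 inhibitions differed (edgeR, adjusted over all genes). All rest on 2 reference groups, senescent control and DMSO, which themselves differed for 14 of the 38 genes. In the difference test, 28.9% of the transporters were called higher and 26.3% lower, against 22.1% and 19.5% of all tested genes. Between DMSO and senescent control cells these shares were 13.2% and 23.7%, against 8.36% and 7.87% of all tested genes.

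Of the genes higher under the hairpin than under TRi-1, the cystine carrier SLC7A11 differed by 0.97 (hairpin 1.05, TRi-1 0.085) and its heavy chain SLC3A2 by 0.73 (1.04 and 0.31). SLC38A6 differed by 1.34 (hairpin 1.35, TRi-1 0.0066), SLC38A9 by 1.06 (1.08 and 0.023) and SLC6A15 by 1.06 (1.17 and 0.11). SLC38A1 differed by 0.52 (0.78 and 0.26), and SLC7A2, lower under both, by 0.45 (-0.36 and -0.81). SLC38A7 differed by 0.53 (0.93 and 0.40), a call lost at adjusted p from 0.0503 to 0.0805 without any 1 of the 3 senescent control libraries, shTXNRD1 replicates 1 and 2, DMSO replicates 2 and 3 or TRi-1 replicates 1 and 2. SLC6A19 passed the low-count filter only through its shTXNRD1 libraries, with few counts in each other library. It differed by 2.82 (adjusted p = 0.0381), lost without any 1 of senescent control replicates 2 and 3, shTXNRD1 replicate 2, DMSO replicates 1 and 3 or TRi-1 replicates 1 and 3, at adjusted p from 0.0659 to 0.122. SLC43A1, called under neither inhibition, differed by 0.54 (hairpin 0.31, TRi-1 -0.23, adjusted p = 0.0340), lost without any 1 of senescent control replicates 1 and 3, shTXNRD1 replicate 1, DMSO replicates 1 and 3 or the 3 TRi-1 libraries, at adjusted p from 0.0584 to 0.0824. SLC6A16 differed by 1.28 (0.38 and -0.90, adjusted p = 0.0238), lost without senescent control replicate 2, DMSO replicate 3 or TRi-1 replicate 3, at adjusted p from 0.0573 to 0.0625.

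Of the genes lower under the hairpin than under TRi-1, SLC7A14 differed by -2.13 (hairpin -1.62, TRi-1 0.51) and SLC1A3 by -2.06 (-2.80 and -0.74). SLC1A5 differed by -1.11 (-1.21 and -0.10), SLC6A8 by -1.03 (-0.63 and 0.40), SLC6A6 by -0.84 (-1.65 and -0.82) and SLC1A4 by -0.80 (-1.24 and -0.44). SLC1A1 differed by -0.55 (-1.11 and -0.56), SLC43A3 by -0.44 (-0.79 and -0.35), SLC7A6 by -0.41 (-0.14 and 0.27) and SLC7A1 by -0.36 (-0.42 and -0.060).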

How the results depend on the processing

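Called genes were recounted under 25 alternatives, and most counts stayed within 1.5 times of those reported. Those that moved further are among the counts given next. The count of genes higher with TRi-1, reported as 5, was 3 with upper-quartile scaling, 3 with a replicate block, 9 with the transcript GC correction and 3 to 4 with 1 library left out. The genes behind a recount need not be the same. With the GC correction, for example, the TRi-1 call of SLC3A2 was lost and one of SLC7A11 was gained. The count higher in DMSO than in senescent control cells, reported as 5, was 3 with a filter at a mean CPM of 5 and 3 to 4 with 1 library left out. With the GC correction, 14 genes were higher with the hairpin in place of 9, and 17 were lower in DMSO in place of 9. The higher difference calls, 11 in all, ranged from 7 to 11 with 1 library left out, and were 7 without DMSO replicate 3. Single-library removals gave 14 to 14 higher and 13 to 14 lower calls in senescence, 9 to 12 and 12 to 15 with the hairpin, 9 to 10 lower with TRi-1, 10 to 12 lower differences, and 8 to 9 lower in DMSO. The GC correction reversed 2 uncalled values into calls: SLC43A1 in senescent against growing control cells to -0.31 (adjusted p = 0.0190) and FLCN with the hairpin to 0.25 (adjusted p = 0.000207). The cause was not tested. No pairing by replicate number was seen: correlations of same-numbered libraries ran from -0.611 to 0.423, and 2 of 12 libraries correlated best with their own number. These correlations also carry the GC tilt of the libraries, so they cannot show whether same-numbered libraries shared a culture. With the replicate block the counts in senescence (14 and 13) and with the hairpin (9 and 13) were as reported, and those with TRi-1 were 3 and 10, of differences 9 and 10, and in DMSO 4 and 8.

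Depth limits the low members: 20 of the 58 genes could not be tested, and SLC6A16 and SLC6A19, both near or under 1 CPM, lost calls when single libraries were left out. The TRi-1 change of SLC6A16, -0.90 (adjusted p = 0.0358), had an adjusted p of 0.103 with DESeq2.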
